A study of Mus musculus with 6 samples.

Results

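Glycolysis and hypoxia-response genes are described here in CD8 T cells that infiltrated mouse tumours. The members were taken from a list of 34 genes, of which 23 encode glucose and lactate transporters, glycolytic enzymes or enzymes at the pyruvate branch, 10 are targets of the hypoxia response and 1, Hif1a, encodes its transcription factor. The brightest probe set by mean over the 6 arrays stood for each gene, and 31 of the 34 had a probe set annotated to them alone, against 12572 genes tested in all. The other 3 were not analysed here: no probe set was listed for Gpi1 or Eno1 in the annotation used, and the 3 probe sets of Bnip3l also named a pseudogene. All 31 passed the filter on dim signal, each lying above the 40th percentile of its array on every array.

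The cells came from MCA-205 tumours, a transplanted fibrosarcoma line, grown in male C57BL/6 mice in which GFP reports Eomes, a T-box factor that shapes effector and memory CD8 T cells. Of the arrays, 3 held RNA of GFP-positive CD8 T cells (Eomes+) and 3 RNA of GFP-negative CD8 T cells (Eomes-). Every mouse, in both fractions, had been given 250 ug of an antibody to OX40 on days 12 and 16 and 200 ug of an antibody to CTLA-4 on days 12, 14 and 16, with the harvest on day 19. No age, pooling or animal number was given in the labels used here, the reporter reads the Eomes locus and not the protein, and untreated mice were not analysed here. Values are log2 signals as deposited, differences are Eomes+ minus Eomes- on that log2 scale, and values of 3 arrays are listed in the order of their replicate numbers.

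Glycolysis converts glucose to pyruvate in the cytosol, and activated CD8 T cells raise glucose uptake and send much of the pyruvate to lactate. When oxygen is low, the prolyl hydroxylases encoded by Egln genes stop marking HIF-1alpha for degradation, and the stabilised factor induces glucose transporters, most glycolytic enzymes and genes such as Vegfa and Bnip3. T cell receptor and mTOR signals can raise HIF-1alpha in T cells without low oxygen, and HIF-1alpha is regulated largely at the protein level, which arrays do not read.

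Array medians lay between 6.35 and 6.42 log2 over all 45101 probe sets, and with 6 arrays every value below has limited precision. Eomes itself had 10.38, 9.86 and 8.38 log2 in Eomes+ cells against 6.85, 6.89 and 5.42 log2 in Eomes- cells, with no overlap. Within each fraction the arrays carried unequal amounts of RNA of other cells. The mean was higher in Eomes+ cells for 21 of 22 tumour and fibroblast genes and 16 of 21 macrophage and monocyte genes (47.4% of all genes). Only 2 of the 22 and 7 of the 21 were higher within all 3 replicate numbers (14% of all genes). In both lists 0 genes had groups without overlap, where 3.05% of all genes were higher and 4.66% lower in that way. The mean of 22 tumour and fibroblast genes of 24 listed ranged from 8.63 to 11.42 log2 over Eomes+ arrays and from 8.48 to 11.53 log2 over Eomes- arrays, and that of 21 macrophage and monocyte genes of 23 listed from 8.63 to 10.81 and from 8.37 to 10.82. In both fractions the array numbered 3 was the highest for these markers and the lowest for 16 T cell identity genes of 20 listed, at 10.46 log2 in Eomes+ and 10.60 log2 in Eomes-, where the other arrays lay between 11.54 and 11.85. The mean of 5 B and plasma cell genes of 10 listed did not overlap, at 7.28, 7.15 and 6.89 log2 in Eomes+ cells against 6.40, 6.81 and 6.82 log2 in Eomes- cells. Taken singly, 0 of these 5 genes had groups without overlap, and 4 had a higher and 1 a lower mean in Eomes+ cells. The part of any RNA of other cells in the results below was not tested. The tumour and macrophage markers Col1a1, Lyz2 and C1qb were not at background, with signals of 10.01 log2 or more on all 6 arrays. Other markers were dimmer. The macrophage genes Adgre1 and Itgam had 5.47 and 5.64 log2 on Eomes- replicate 1, below that array's 40th percentile of 5.72 log2. In such bulk samples fewer cells of a type and less RNA per cell cannot be told apart.

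No glycolysis or hypoxia gene passed the test between fractions, and the balance of lower and higher means hung on single arrays. Of the 31 members 22 had a lower mean in Eomes+ cells and 9 a higher one, against 52.6% and 47.4% of all genes tested. Without Eomes- replicate 3 only 10 had a lower mean (53.1% of all genes did), without Eomes+ replicate 1 it was 15 (52.6%), and with array weights 16 (52.2%). Of the 31 members 0 passed limma at an adjusted p under 0.05 over all genes, where 0% of all 12572 genes were called. The median difference over the 31 members was -0.10 log2, against -0.016 log2 over all genes tested. At an unadjusted p under 0.05 there were 4 members, all lower in Eomes+ cells: Hk1, Aldoc, Ddit4 and Hif1a, where 2.04% of all genes were lower and 1.22% higher at that level. The adjusted p of every member was 1.00. Missing the threshold is no proof of equal expression, because the spread within a fraction enters the test. Even Eomes, the gene whose reporter defined the fractions, did not pass in this fit (difference 3.15 log2, SE 0.64; limma unadjusted p = 0.00205). With replicate number added to the fit as a block it did pass (limma adjusted p = 0.0166).

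Groups did not overlap for 5 members. Hk1, Aldoc, Pfkfb3 and Ddit4 were lower on every Eomes+ array than on any Eomes- array, 4 of 31 where 4.66% of all genes were so placed. Pdk1 was the only member of the 31 placed the other way, where 3.05% of all genes were. Leaving out an array cannot make these 5 overlap, but it let other members join them, as it did for genes of any kind. The counts of lower and higher members were 4 and 3 without Eomes+ replicate 1 (11.7% and 6.81% of all genes), 5 and 1 without Eomes+ replicate 2 (8.39% and 6.15%) and 6 and 1 without Eomes+ replicate 3 (9.45% and 8.47%). Leaving out Eomes- arrays gave 5 and 1 for replicate 1 (7.92% and 6.64%), 4 and 1 for replicate 2 (6.93% and 4.93%) and 7 and 4 for replicate 3 (14.3% and 8.56%). With the mean of a gene's probe sets in place of the brightest, Hk1, Ddit4 and Aldoa were the 3 lower members without overlap (4.76% of all genes) and Pdk1 the higher one (2.73%). After quantile normalization they were Hk1, Aldoc and Ddit4 (3.79%), with Pdk1 again (3.51%).

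**Figure D1:**
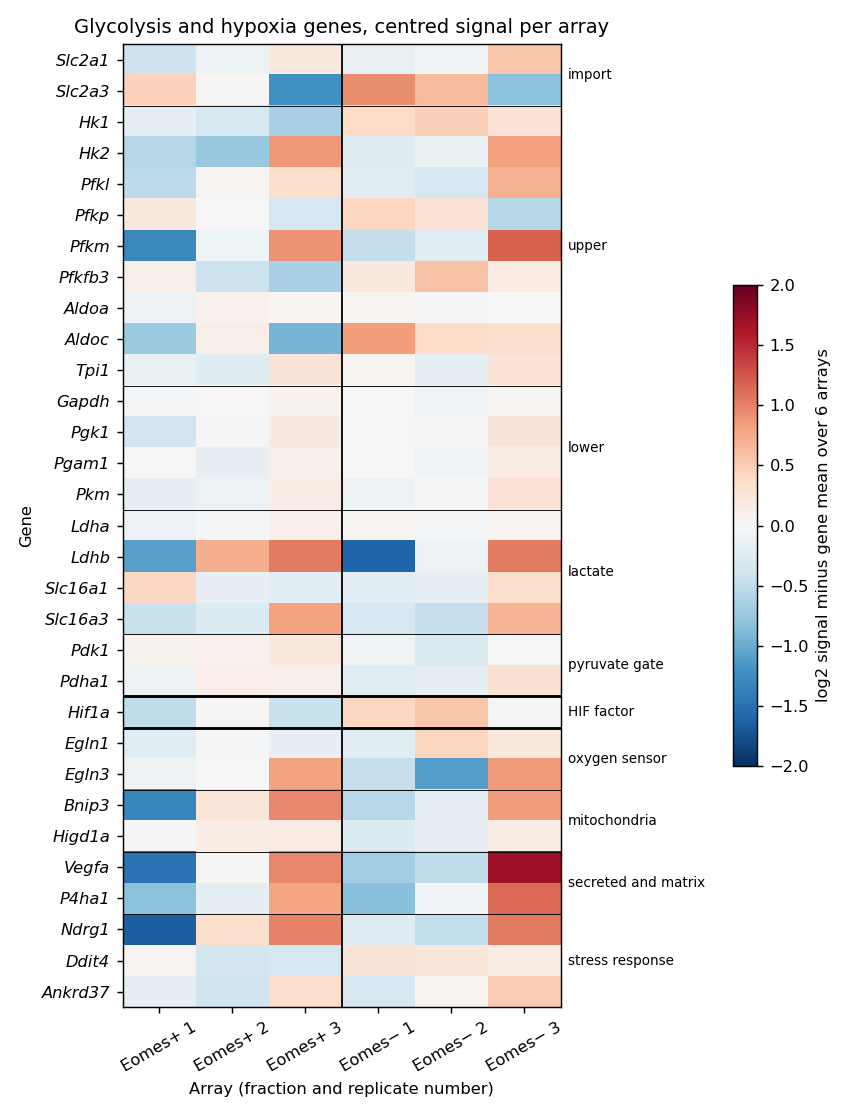
Heat map of the 31 measured genes (rows, grouped by role) on the 6 arrays (columns, Eomes+ left of Eomes-), with colour giving the log2 signal minus the gene's mean over the 6 arrays. Hk1, Aldoc, Pfkfb3 and Ddit4 are lower on the 3 Eomes+ arrays, while Vegfa, Ndrg1, Bnip3, P4ha1 and Ldhb differ mainly between replicate numbers and are highest on both arrays numbered 3.

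Glucose enters T cells through GLUT1, encoded by Slc2a1, and GLUT3, encoded by Slc2a3. Slc2a3 had 11.27, 10.84 and 9.59 log2 in Eomes+ cells against 11.74, 11.44 and 9.99 log2 in Eomes- cells. The groups overlapped because both arrays numbered 3 were low, but each Eomes+ array lay below the Eomes- array of its number, by 0.47, 0.60 and 0.40 log2. The difference was -0.49 log2 (SE 0.59; limma unadjusted p = 0.436). All 4 Slc2a3 probe sets gave a lower mean in Eomes+ cells, between -0.49 and -1.32 log2, and each was lower within all 3 numbers. Without Eomes+ replicate 3 the difference of the brightest probe set was only -0.0040 log2, and without Eomes- replicate 3 it was -1.03 log2.

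Slc2a1 had 11.94, 12.25 and 12.55 log2 in Eomes+ cells and 12.20, 12.27 and 12.91 log2 in Eomes- cells, a difference of -0.21 log2 (SE 0.24; limma unadjusted p = 0.414). In contrast to Slc2a3, its 2 highest arrays were those numbered 3, in either fraction. Its probe sets disagreed, with 2 of 3 lower in Eomes+ cells. Without Eomes- replicate 3 the difference was 0.015 log2.

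In the upper part of the pathway, hexokinase traps glucose as glucose-6-phosphate. Hk1, the hexokinase of most tissues, had 9.23, 9.09 and 8.75 log2 in Eomes+ cells against 9.80, 9.87 and 9.68 log2 in Eomes- cells. Every Eomes+ array was the lower, and the means of 9.02 ± 0.25 and 9.78 ± 0.10 log2 (SD, n = 3 each) differed by 1.69-fold. The limma difference was -0.76 log2 (SE 0.21; unadjusted p = 0.0099; adjusted p = 1.00). It lay between -0.62 and -0.86 log2 with single arrays left out. However, the other Hk1 probe set differed by 0.05 log2, so the direction rests on 1 of 2 probe sets, and their mean gave -0.35 log2.

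Hk2, the inducible hexokinase and a classical HIF target, had 8.85, 8.67 and 10.29 log2 in Eomes+ cells against 9.17, 9.30 and 10.25 log2 in Eomes- cells. Both arrays numbered 3 stood above the other 4, and the difference of -0.30 log2 (SE 0.51) turned to 0.037 log2 without Eomes- replicate 3 and to 0.0021 log2 without Eomes+ replicate 2.

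Aldoc, an aldolase isoform best known from brain, showed the largest difference among the 31 genes. It had 7.79, 8.66 and 7.60 log2 in Eomes+ cells against 9.37, 8.91 and 8.89 log2 in Eomes- cells, a 2.05-fold lower mean in Eomes+ cells (8.02 ± 0.56 against 9.05 ± 0.27 log2; SD, n = 3 each). The groups did not overlap, although Eomes+ replicate 2 came within 0.25 log2 of its Eomes- counterpart by number. The limma difference was -1.04 log2 (SE 0.35; unadjusted p = 0.0217; adjusted p = 1.00). The dimmer Aldoc probe set differed by 0.12 log2 in the other direction, and the difference was -0.46 log2 for the mean of both sets and -0.50 log2 with array weights. Aldoa, the main aldolase isoform, differed by 0.0030 log2 (SE 0.089) for its brightest probe set, while 3 of its 5 probe sets were lower in Eomes+ cells, 2 of them without overlap.

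Pfkfb3 makes fructose-2,6-bisphosphate, the activator of phosphofructokinase. Its signal was 8.28, 7.74 and 7.52 log2 in Eomes+ cells against 8.36, 8.75 and 8.34 log2 in Eomes- cells. The highest Eomes+ array and the lowest Eomes- array lay close together, and the groups overlapped after quantile normalization. The difference was -0.64 log2 (SE 0.29; limma unadjusted p = 0.0681), and the other probe set gave -0.35 log2. The phosphofructokinase genes themselves differed by -0.09 log2 for Pfkl (SE 0.37), -0.10 for Pfkp (SE 0.30) and -0.32 for Pfkm (SE 0.67), each with overlapping groups, and Tpi1, triosephosphate isomerase, differed by -0.10 log2 (SE 0.19). The other Tpi1 probe sets gave -0.43 and -0.19 log2, each lower within all 3 numbers.

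**Figure D2:**
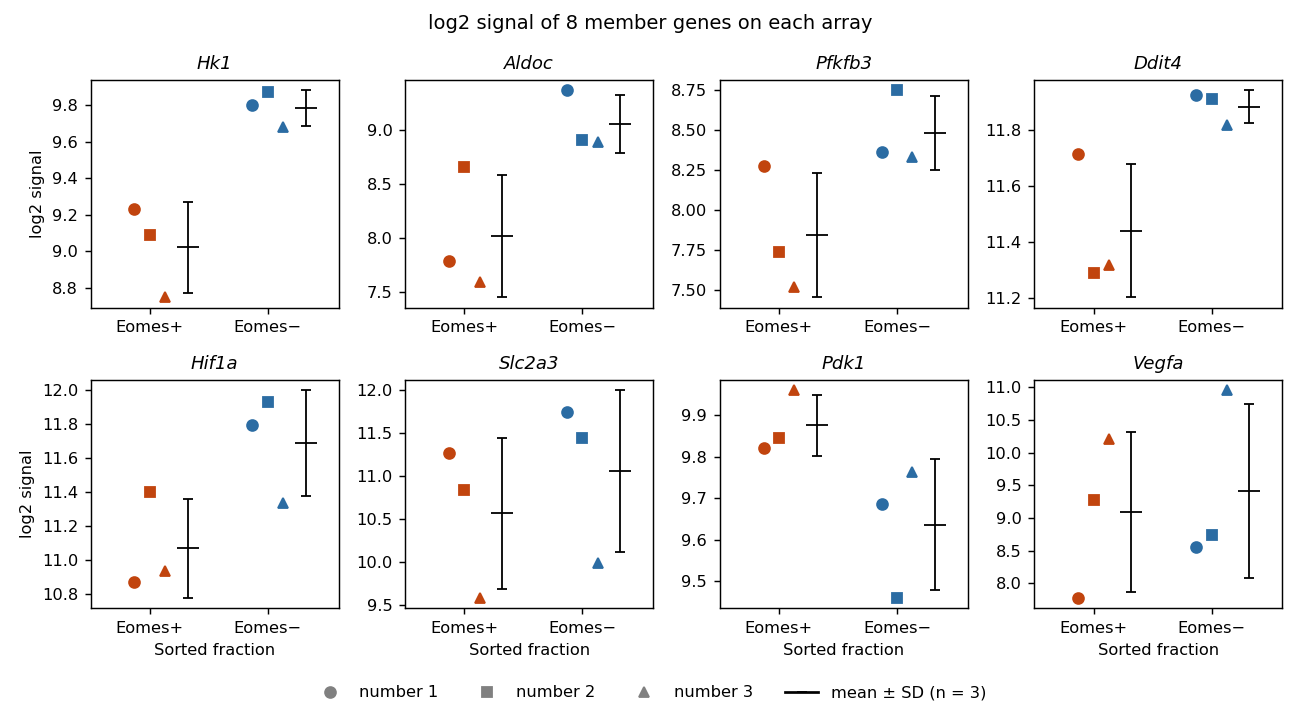
Points give the log2 signal of 8 genes on each array, with Eomes+ left of Eomes-, marker shape giving the replicate number, and black bars the mean ± SD of 3 arrays. Hk1, Aldoc, Pfkfb3 and Ddit4 are lower and Pdk1 higher on every Eomes+ array, Hif1a and Slc2a3 overlap, and Vegfa ranges from 7.78 to 10.95 log2 across both fractions.

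The lower, energy-yielding part of glycolysis showed small differences between fractions. Gapdh, Pgk1, Pgam1 and Pkm, which carry triose phosphate on to pyruvate, differed by between -0.14 and 0.015 log2, and for all 4 both arrays numbered 3 lay above the other 4. Pgk1 had 12.32, 12.69 and 12.89 log2 in Eomes+ cells against 12.71, 12.66 and 12.95 log2 in Eomes- cells (difference -0.14 log2, SE 0.17; limma unadjusted p = 0.433). Without Eomes+ replicate 1, its lowest array, that difference was 0.013 log2.

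Gapdh is read by control probe sets that sit at the 3', middle and 5' parts of its transcript. The 3' set, the brightest, had 14.00, 14.03 and 14.11 log2 in Eomes+ cells and 14.05, 13.97 and 14.07 log2 in Eomes- cells, close to the highest signal of the table (14.95 log2). Both other sets were lower in Eomes+ cells. The middle set had 12.56, 12.84 and 13.13 log2 in Eomes+ cells against 13.07, 13.25 and 13.41 log2 in Eomes- cells. The 5' set had 12.11, 12.26 and 12.56 log2 in Eomes+ cells against 12.51, 12.90 and 12.96 log2 in Eomes- cells. The 3' minus 5' value, a sign of RNA integrity, was therefore 1.88, 1.77 and 1.55 log2 in Eomes+ cells against 1.54, 1.07 and 1.11 log2 in Eomes- cells. An exact permutation test (two-sided, 3 against 3) gave p = 0.1, which is the lowest p that this design allows. The control sets of Actb differed less, with 3' minus 5' values of 0.08, 0.17 and 0.13 log2 in Eomes+ cells. Eomes- cells had -0.0022, 0.05 and 0.11 log2, so the groups overlapped (exact permutation test, p = 0.2). The part of the Gapdh difference in the lower signals of Hk1, Aldoc, Pfkfb3 and Ddit4 was not tested.

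Lactate genes did not share a direction. Ldha, the lactate dehydrogenase subunit that favours lactate formation, had 12.90, 12.99 and 13.12 log2 in Eomes+ cells and 13.05, 12.98 and 13.06 log2 in Eomes- cells, a difference of -0.030 log2 (SE 0.09). It was among the 3 members with the narrowest spread over the 6 arrays, the others being Gapdh and Aldoa. Ldhb, the subunit that favours pyruvate, varied far more, at 7.38, 9.19 and 9.50 log2 in Eomes+ cells against 6.87, 8.37 and 9.49 log2 in Eomes- cells. Each Eomes+ array exceeded its counterpart by number, and all 4 Ldhb probe sets had a higher mean in Eomes+ cells, but the groups overlapped widely (difference 0.45 log2, SE 0.81). Without Eomes- replicate 1 the difference turned to -0.24 log2.

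Slc16a3, which encodes the lactate exporter MCT4, had 9.01, 9.18 and 10.26 log2 in Eomes+ cells against 9.11, 8.99 and 10.13 log2 in Eomes- cells, again with both arrays numbered 3 on top. Its difference of 0.07 log2 (SE 0.45) turned to -0.32 log2 without Eomes+ replicate 3 and was also negative without Eomes- replicate 1 or 2 (-0.08 and -0.14 log2). Slc16a1, which encodes the related carrier MCT1, differed by 0.025 log2 (SE 0.27), with the arrays of number 1 and number 3 differing by 0.65 and -0.58 log2.

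Pdk1, the kinase that inactivates pyruvate dehydrogenase and so keeps pyruvate out of mitochondria, was higher on every Eomes+ array. It had 9.82, 9.85 and 9.96 log2 in Eomes+ cells against 9.69, 9.46 and 9.76 log2 in Eomes- cells (difference 0.24 log2, SE 0.18; limma unadjusted p = 0.231). The 3 dimmer Pdk1 probe sets gave larger differences of 0.35, 0.78 and 1.17 log2, and all 4 were higher in Eomes+ cells within each of the 3 numbers. Pdha1, a catalytic subunit of the complex that Pdk1 inhibits, differed by 0.08 log2 (SE 0.21), and its other probe set by -0.21 log2.

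**Figure D3:**
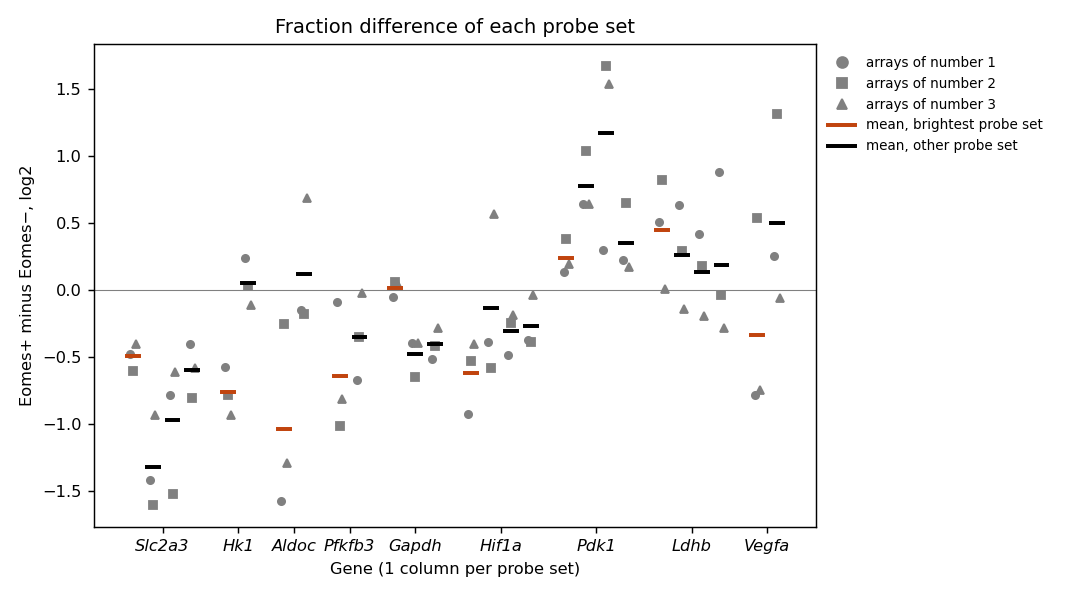
Differences between Eomes+ and Eomes- (log2) for every probe set of 9 genes, 1 column per probe set, with grey markers for the arrays of each replicate number, an orange bar for the mean of the brightest probe set and black bars for the others. All 4 Slc2a3 sets lie below 0 and all 4 Pdk1 sets above 0, whereas the sets of Hk1, Aldoc and Vegfa differ in sign.

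Hif1a, which encodes the oxygen-regulated subunit of HIF-1, had 10.87, 11.40 and 10.93 log2 in Eomes+ cells against 11.79, 11.93 and 11.34 log2 in Eomes- cells. Eomes+ replicate 2 lay just above Eomes- replicate 3, and otherwise the groups were apart. The means were 11.07 ± 0.29 against 11.69 ± 0.31 log2 (SD, n = 3 each), a 1.54-fold difference (-0.62 log2, SE 0.23; limma unadjusted p = 0.0304; adjusted p = 1.00). All 4 Hif1a probe sets had the lower mean in Eomes+ cells, between -0.13 and -0.62 log2, and their mean gave -0.33 log2. With single arrays left out the difference lay between -0.50 and -0.80 log2, and without both arrays numbered 3 it was -0.73 log2.

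The oxygen sensors, which are also induced by HIF, had means that differed in opposite directions. Egln3 had 9.24, 9.35 and 10.14 log2 in Eomes+ cells against 8.87, 8.25 and 10.19 log2 in Eomes- cells. Both arrays numbered 3 stood above the others, and among the other 4 both Eomes+ arrays were higher. The difference was 0.48 log2 (SE 0.53), 0.74 log2 without both arrays numbered 3 and 0.047 log2 without Eomes- replicate 2. The other Egln3 probe set differed by only 0.027 log2, and there Eomes+ replicate 1 (7.98 log2) lay below Eomes- replicate 2 (8.59 log2). The mean of both sets gave 0.25 log2. Egln1, which encodes the main prolyl hydroxylase PHD2, differed by -0.27 log2 (SE 0.21), and both of its probe sets were lower in Eomes+ cells.

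Ddit4 was the one gene among the 9 target members whose groups did not overlap. Its product, REDD1, restrains mTORC1 under low oxygen and other stress. It had 11.71, 11.29 and 11.32 log2 in Eomes+ cells against 11.92, 11.91 and 11.82 log2 in Eomes- cells, where the Eomes- arrays were nearly equal. The mean was 1.36-fold lower in Eomes+ cells (11.44 ± 0.24 against 11.88 ± 0.06 log2; SD, n = 3 each; limma difference -0.44 log2, SE 0.15, unadjusted p = 0.0262, adjusted p = 1.00). Ddit4 and Hk1 were the 2 members that passed under any of the 23 other settings tried, in both cases with array weights (limma adjusted p = 0.045 and 0.0461), a setting under which 2.01% of all genes passed. Over those settings the lowest adjusted p of any other member was 0.0526, for Pfkfb3.

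The remaining targets overlapped widely. Vegfa, the angiogenic growth factor, had the broadest range of all 31 genes, at 7.78, 9.27 and 10.21 log2 in Eomes+ cells against 8.56, 8.74 and 10.95 log2 in Eomes- cells. Its difference of -0.33 log2 (SE 0.84) was negative for numbers 1 and 3 and positive for number 2, and its other probe set gave 0.50 log2. Ndrg1, a stress-response gene induced by low oxygen, had 8.97, 10.98 and 11.63 log2 in Eomes+ cells against 10.37, 10.13 and 11.67 log2 in Eomes- cells. Bnip3, which promotes removal of mitochondria, had 9.28, 10.81 and 11.54 log2 in Eomes+ cells against 10.03, 10.39 and 11.42 log2 in Eomes- cells. For these 3 genes Eomes+ replicate 1 was the lowest of the 6 arrays, and without it their differences became 0.32, 0.58 and 0.56 log2. Without Eomes- replicate 3 they also turned, to 0.44, 0.27 and 0.33 log2.

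Higd1a, a mitochondrial protein gene induced by hypoxia, had 11.37, 11.54 and 11.56 log2 in Eomes+ cells against 11.12, 11.22 and 11.54 log2 in Eomes- cells, with the difference of 0.20 log2 (SE 0.16) in the same direction in all 3 numbers. Both of its dimmer probe sets differed in the other direction. P4ha1, a collagen prolyl hydroxylase subunit, differed by -0.16 log2 (SE 0.59) and Ankrd37, an ankyrin repeat gene, by -0.15 log2 (SE 0.32).

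For most of these genes both arrays numbered 3 stood apart from the other 4. Both arrays numbered 3 lay above the other 4 for 18 of the 31 members, where 21.6% of all genes tested did so, and below the other 4 for 2, Slc2a3 and Pfkp, where 20.6% did. For 0 members were both arrays numbered 1 or both numbered 2 the highest (14.6% and 4.31% of all genes), while for 7 both numbered 1 were the lowest (15.3%) and for 2 both numbered 2 (4.62%). Among the 18 were 6 of 9 hypoxia targets (Egln3, Bnip3, Vegfa, P4ha1, Ndrg1 and Ankrd37) and 12 of 21 enzymes and transporters. The arrays numbered 3 were also those with the most tumour and macrophage signal: 21 of 22 tumour and fibroblast genes and 20 of 21 macrophage genes were highest on both, and 15 of 16 T cell identity genes were lowest on both. The part of RNA from other cells in the levels of the 18 members was not tested. The mean over the 3 numbers ranged more widely than the fractions differed for 25 of the 31 members, a share of 80.6% against 85.6% of all genes. In this the members were no different from genes of any kind. A range over 3 means also tends to exceed a difference of 2.

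Without both arrays numbered 3, the groups did not overlap for 9 lower members (Aldoc, Ddit4, Hif1a, Hk1, Hk2, Pfkfb3, Pfkp, Pkm and Slc2a3) and 5 higher ones (Egln3, Higd1a, Pdha1, Pdk1 and Slc16a1). With 2 arrays against 2 this placement is also more frequent over all genes, at 19.9% lower and 14.7% higher. Without both arrays numbered 1 the counts were 5 lower and 3 higher (15.2% and 10.9% of all genes), and without both numbered 2 they were 5 and 1 (11% and 8.88%).

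Comparing each Eomes+ array with the Eomes- array of its number, 11 members were lower in all 3 numbers, where 17.3% of all genes were, and 3 were higher in all 3 (Ldhb, Pdk1 and Higd1a), where 14% were. The 11 were both glucose transporter genes, Hk1, Pfkfb3, Aldoc, Tpi1, Pgam1, Pkm, Hif1a, Egln1 and Ddit4. Of these Pgam1, Pkm and Tpi1 differed by 0.20 log2 or less in each number for the brightest probe set, and that of Egln1 was practically equal in number 1. In number 1 a dimmer probe set of Tpi1 differed by -0.68 log2 and the other set of Egln1 by -0.55 log2. Whether a number stands for one experiment is not stated in the labels.

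Hypoxia targets varied more over the arrays than enzymes and transporters did. The median difference was -0.10 log2 over 21 enzymes and transporters (14 lower, 7 higher) and -0.16 log2 over 9 hypoxia targets (7 lower, 2 higher), against -0.016 log2 over all genes. The median range over the 6 arrays was 0.97 log2 for the enzymes and 1.95 log2 for the targets, against 0.96 log2 for all genes. With each gene centred on its own mean, enzymes stood at -0.24, -0.07 and 0.06 log2 in Eomes+ cells and at -0.04, -0.0053 and 0.29 log2 in Eomes- cells. Hypoxia targets stood at -0.64, -0.03 and 0.50 log2 in Eomes+ cells and at -0.37, -0.20 and 0.73 log2 in Eomes- cells.

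Enzymes minus targets was then 0.39, -0.04 and -0.44 log2 in Eomes+ cells and 0.34, 0.19 and -0.44 log2 in Eomes- cells. In both fractions numbers 1 and 3 lay far apart, and Eomes- replicate 2 lay closer to Eomes- replicate 1 than to Eomes+ replicate 2. The fraction difference in this measure was -0.06 log2, smaller than the SD of 0.42 and 0.41 log2 among 3 arrays. It turned positive without Eomes+ replicate 3 (0.14), Eomes- replicate 1 (0.09) or Eomes- replicate 2 (0.020), with the mean of probe sets (0.034) and with a covariate of tumour and macrophage markers (0.032), and was -0.28 and -0.30 log2 without Eomes+ replicate 1 or Eomes- replicate 3. The median of the targets turned to 0.26 and 0.32 log2 without those same 2 arrays and to 0.30 log2 with array weights, and that of the enzymes to 0.016 log2 without Eomes- replicate 3.

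**Figure D4:**
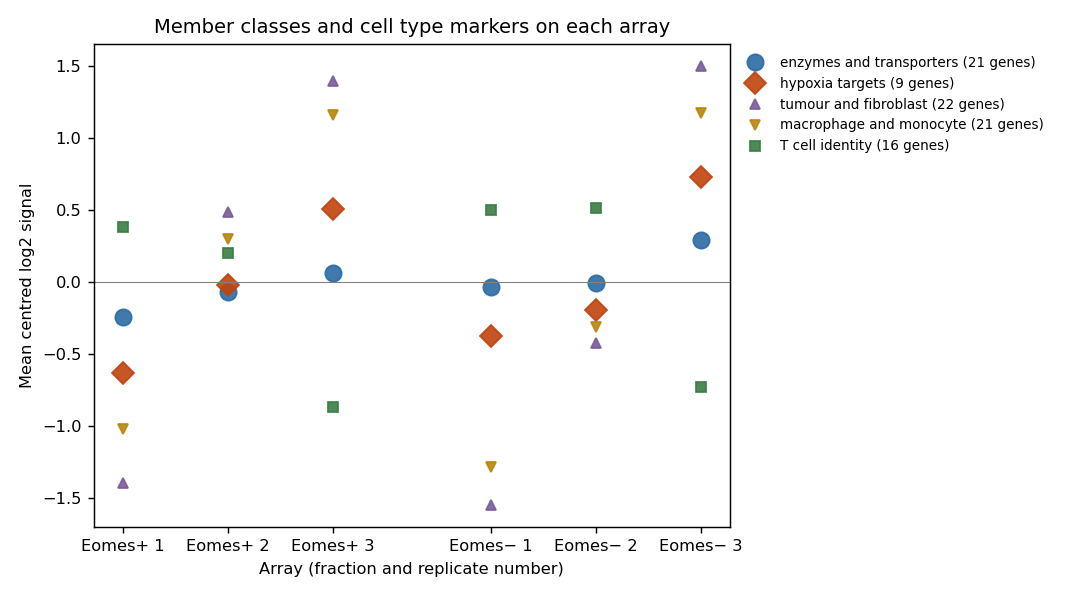
Mean centred log2 signal (each gene minus its mean over 6 arrays) of the 2 classes of member genes and of 3 cell type marker lists on each array, Eomes+ left of Eomes-. Hypoxia targets reach 0.50 and 0.73 log2 on the arrays numbered 3, where tumour and macrophage markers are also highest and T cell markers lowest, and enzymes stay between -0.24 and 0.29 log2.

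The core of the HIF binding site is read here as ACGTG or GCGTG on either strand, searched in RefSeq promoter windows of GRCm38.p6 that run from 250 bases before a start to 50 after it. Windows were found for 31 of the 34 listed genes (not for Slc2a3, Ndrg1 and Bnip3l), and the most upstream start was used where a gene had several. A core was present in 25 of these 31 windows (80.6%), against 43.8% of 27026 windows of all genes and 62% of 10127 windows of the genes tested here. For ACGTG alone the shares were 61.3%, 19.6% and 25.5%, and for GCGTG alone 58.1%, 32.5% and 50.5%. The E-box CACGTG, which contains ACGTG on both strands and is then counted on each, was in 5 of the 31 (16.1%). It was in 7.24% of the windows of all genes and 9.94% of those of the genes tested. A match describes letters and is not a site of binding.

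Windows are shown for the 5 genes whose groups did not overlap, and for Ldha, which had the most matches (7) of any member and almost no difference between fractions. They lie at chr10:62379859-62380158 (Hk1, minus strand), chr2:11553880-11554179 (Pfkfb3, minus), chr11:78322823-78323122 (Aldoc, plus), chr10:59951721-59952020 (Ddit4, minus), chr2:71872974-71873273 (Pdk1, plus) and chr7:46845554-46845853 (Ldha, plus). Capitals mark the cores on either strand, and each window is written 5′ to 3′ along its gene.
Hk1: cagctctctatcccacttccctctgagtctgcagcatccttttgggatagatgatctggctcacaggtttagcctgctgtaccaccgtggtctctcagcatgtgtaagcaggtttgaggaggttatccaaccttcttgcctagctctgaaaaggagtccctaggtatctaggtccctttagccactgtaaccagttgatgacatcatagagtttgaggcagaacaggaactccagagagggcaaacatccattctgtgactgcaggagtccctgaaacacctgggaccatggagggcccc
Pfkfb3: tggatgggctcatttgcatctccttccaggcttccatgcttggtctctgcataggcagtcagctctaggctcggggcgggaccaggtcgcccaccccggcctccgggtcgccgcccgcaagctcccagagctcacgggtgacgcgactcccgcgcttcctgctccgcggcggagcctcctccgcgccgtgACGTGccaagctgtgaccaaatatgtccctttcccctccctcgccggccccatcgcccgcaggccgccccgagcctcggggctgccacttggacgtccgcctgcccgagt
Aldoc: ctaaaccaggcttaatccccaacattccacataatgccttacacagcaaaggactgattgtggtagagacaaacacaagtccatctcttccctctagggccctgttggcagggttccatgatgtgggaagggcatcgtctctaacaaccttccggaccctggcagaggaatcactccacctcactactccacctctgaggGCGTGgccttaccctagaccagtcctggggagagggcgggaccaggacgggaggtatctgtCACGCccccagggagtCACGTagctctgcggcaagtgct
Ddit4: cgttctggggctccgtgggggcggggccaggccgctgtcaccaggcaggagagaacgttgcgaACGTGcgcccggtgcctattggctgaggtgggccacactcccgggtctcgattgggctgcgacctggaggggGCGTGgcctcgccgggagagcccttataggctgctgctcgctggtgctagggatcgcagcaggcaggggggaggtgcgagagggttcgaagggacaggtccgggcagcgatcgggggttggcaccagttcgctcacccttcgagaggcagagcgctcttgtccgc
Pdk1: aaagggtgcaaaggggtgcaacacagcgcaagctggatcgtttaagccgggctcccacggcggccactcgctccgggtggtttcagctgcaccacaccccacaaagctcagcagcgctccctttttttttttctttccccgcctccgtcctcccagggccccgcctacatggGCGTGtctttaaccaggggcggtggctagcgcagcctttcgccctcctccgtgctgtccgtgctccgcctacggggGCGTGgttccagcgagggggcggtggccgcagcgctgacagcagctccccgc
Ldha: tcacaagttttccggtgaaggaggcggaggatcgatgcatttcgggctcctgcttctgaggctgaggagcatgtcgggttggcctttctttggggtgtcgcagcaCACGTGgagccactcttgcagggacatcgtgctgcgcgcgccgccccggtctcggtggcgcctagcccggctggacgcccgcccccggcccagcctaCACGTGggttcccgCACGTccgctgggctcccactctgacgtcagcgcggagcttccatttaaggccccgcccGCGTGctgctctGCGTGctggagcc

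The windows of the 4 genes lower in Eomes+ cells held 0 (Hk1), 1 (Pfkfb3), 3 (Aldoc) and 2 (Ddit4) cores, and that of Pdk1, which was higher, held 2. Hk1, Pfkfb3, Aldoc and Pdk1 each had 2 listed starts, of which only the most upstream was counted. With only Pdk1 on the higher side, and the 5 genes picked by their values here, these counts cannot show whether cores go with direction. Vegfa had none in this window, which says only that these letters are not there.

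Other genes of the same pathways were described from separate lists. Of 15 tested isoforms and regulators of glycolysis (24 listed) 10 had a lower mean in Eomes+ cells (median -0.11 log2), of 11 tested genes of pyruvate entry (13 listed) 6 did (median -0.07), and of 7 tested genes of the pentose phosphate pathway (9 listed) 6 did (median -0.12), with 0 passing over all genes. In the last list Pgls, the lactonase that follows glucose-6-phosphate dehydrogenase, had 9.38, 9.60 and 9.59 log2 in Eomes+ cells against 9.92, 10.24 and 10.13 log2 in Eomes- cells, without overlap (limma difference -0.57 log2, SE 0.19, unadjusted p = 0.0198).

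Of 10 hypoxia regulators 6 had a lower mean (median -0.12 log2). Among them Siah2, a ubiquitin ligase that targets prolyl hydroxylases, had 7.68, 7.40 and 7.62 log2 in Eomes+ cells against 8.23, 8.22 and 8.53 log2 in Eomes- cells (difference -0.76 log2, SE 0.24; limma unadjusted p = 0.0159). Its paralogue Siah1a, named after its values were seen, lay the other way without overlap, at 9.85, 9.59 and 9.61 log2 in Eomes+ cells against 9.23, 9.24 and 9.31 log2 in Eomes- cells (0.42 log2, SE 0.18; limma unadjusted p = 0.0578). Of 30 further hypoxia targets (34 listed) 16 had a lower and 14 a higher mean, with a median of -0.021 log2. Hilpda, a lipid droplet protein gene induced by HIF, had 8.50, 8.27 and 7.91 log2 in Eomes+ cells against 9.41, 9.38 and 9.01 log2 in Eomes- cells, a larger difference than that of any of the 9 target members (difference -1.04 log2, SE 0.26; limma unadjusted p = 0.00559). Car12, a carbonic anhydrase gene also named after its values were seen, differed more and in the other direction, with 6.69, 9.10 and 7.63 log2 in Eomes+ cells against 6.86, 6.96 and 5.40 log2 in Eomes- cells and overlapping groups (1.40 log2, SE 0.71; limma unadjusted p = 0.0914). The Car12 value on Eomes- replicate 3 lay below that array's 40th percentile of 5.71 log2. Bhlhe40, a transcription factor gene of activated T cells, differed by -0.69 log2 (SE 0.25; limma unadjusted p = 0.03). None of the 6 genes named from these lists passed over all genes (adjusted p = 1.00 for each), and for none of them were both arrays numbered 3 on top. Both arrays numbered 3 were on top for 13 of the 30 further targets.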

How the data were processed

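RNA of 6 samples, 3 of Eomes+ and 3 of Eomes- CD8 T cells, was hybridised to microarrays, and samples were grouped by title. The authors deposited log2 signals for 45101 probe sets. The submitters' processing notes name MAS5 and the Transcriptome Analysis Console without saying what each did, and no source used here states the summary method. The log2 scale was read from the values (1.68 to 14.95). Array medians were nearly equal, so a shift common to most genes would not be seen. No scan date or slide was given, so batches could not be examined.

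The platform annotation gave 1 gene symbol for 34958 probe sets, several for 932 and none for 9211. Symbols were updated through RefSeq (GRCm38.p6, 34754 matched). Spiked-in controls were not used, whereas control sets annotated to 1 mouse gene, such as those of Gapdh, were kept. Probe sets above their array's 40th percentile on at least 3 arrays were kept, and the brightest stood for each of 12572 genes. The comparison of fractions used limma 3.58.1 (R 4.3.3; eBayes with an intensity trend, two-sided, Benjamini-Hochberg over all genes, threshold 0.05). The fit was tested on simulated data without differences between replicate numbers. Their spread was capped below that of members such as Ndrg1 (SD 1.38 log2 in Eomes+ cells). That test therefore does not show how often real differences would be found on these arrays. The series text names 3 independent experiments, but no array is tied to an experiment or an animal, so p-values reflect only their spread, which may be technical.

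The members and lists were chosen with earlier results of these data known. Values on every array were printed for members without overlap or with an unadjusted p under 0.05, the largest difference in each role, the 3 widest ranges and a set of 14 genes chosen whatever their values, and, of other pathway genes, those with an unadjusted p under 0.05. Alternatives were a replicate block, 2 filters, 2 choices of probe set, 2 normalizations, an offset of 32, no trend, array weights, a covariate of tumour and macrophage markers, and arrays left out.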

Additional observations from a re-analysis of the deposited data

How the results depend on the processing

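The 31 members lay above the filter level on every array. Over the alternatives, the 19 genes named by rule gave 402 values with an unaltered direction and call, 2 that came to pass the threshold and 33 with the opposite sign. What caused the changes was not tested.

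Genes called numbered 17 with the replicate block, 253 with array weights, 8 with the covariate of tumour and macrophage markers and between 0 and 111 with arrays left out (111 with the block and without both arrays numbered 3), against 0. Members called numbered 2 with array weights (Ddit4 -0.57 log2, Hk1 -0.79 log2) and 0 under every other setting run. Replicate numbers were not taken as pairs in the comparison of fractions, since the labels do not say whether equal numbers share an experiment. Arrays of number 1, 2 and 3 had deviations from their group means that correlated at 0.595, 0.0995 and 0.628 over the whole array. The best match of Eomes- replicate 2 was Eomes+ replicate 1 (0.302). The low value for number 2 cannot show that its arrays were unpaired, because deviations from a shared mean depend on each other. With the block 0 members passed. At a limma unadjusted p under 0.05 there were then 6 of 31 members and 1276 of 12572 genes, against 4 and 409 without the block. The 6 were Hif1a, Hk1, Slc2a3, Ddit4, Aldoc and Pfkfb3, all lower in Eomes+ cells.

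With the mean of probe sets the difference turned for Gapdh (-0.29 log2), Higd1a (-0.14) and Vegfa (0.086). With array weights it turned for Bnip3 (0.34), Ldha (0.0012), Ndrg1 (0.63) and Vegfa (0.42), and with the covariate for Slc16a3 (-0.059). With arrays left out singly or by number, differences that turned ranged from -0.57 to 0.56 log2 for Bnip3, -0.086 to 0.029 for Ldha, -0.75 to 0.58 for Ndrg1, -0.27 to 0.013 for Pgk1, -0.89 to 0.44 for Vegfa, -0.81 to 0.037 for Hk2, -0.017 to 0.050 for Gapdh, -0.32 to 0.43 for Slc16a3, -0.24 to 1.10 for Ldhb and -0.36 to 0.015 for Slc2a1. With the block and without both arrays numbered 1 it turned for Bnip3 (0.27), Ldha (0.029) and Ndrg1 (0.40), and without both numbered 2 for Gapdh (-0.0071).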
